A study of Mus musculus with 8 samples.

Results

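The genes described here are the Cyp, Gst, Ugt, and Sult families, the main enzyme families by which vertebrate cells modify foreign compounds, in 3 populations of thymic epithelial cells (TECs) sorted from E17 mouse embryos. Members were chosen by gene symbol, as symbols that start with Cyp or Ugt or Sult and a number, or with Gst, a class letter, and a number, and symbols of named pseudogenes were dropped. The choice left 166 of the 55450 genes in the deposited table, with 101 Cyp, 22 Gst, 22 Ugt, and 21 Sult genes. Of these 165 are protein coding, and the other is the antisense RNA Cyp4x1os. Libraries numbered 3 for CCL21+RANK-, 3 for CCL21-RANK+, and 2 for CCL21-RANK- TECs. All were CD45-EpCAM+ cells from embryos that carried a tdTomato reporter knocked in at Ccl21a and a Venus transgene that reports Tnfrsf11a, the gene of the cytokine receptor RANK, and the populations were separated by these 2 reporters. The sample records give no zygosity, but the study describes the knock-in as heterozygous, so 1 Ccl21a allele was replaced in all 3 populations. The study calls its replicates biological in general and does not say whether the libraries of a population came from separate embryos, litters, or sorts, and p-values measure the spread between these libraries. Library totals were 42751839 to 71625282 counts.

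Cyp enzymes are heme monooxygenases that oxidise drugs, and also retinoic acid, sterols, vitamin D, and fatty acids. Gst enzymes couple electrophiles to glutathione, Ugt enzymes add glucuronic acid, and Sult enzymes add sulfate from the donor PAPS. Most are known from liver, gut, and steroid-producing organs. In the thymus medulla, Aire-expressing epithelial cells transcribe many genes that belong to other tissues and display their products to developing T cells, and RANK signals drive the maturation of these cells.

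The sort was first checked on its reporter genes, in RPKM, the count scaled to the library total and to the length of its exons. Ccl21a averaged 404 ± 137 RPKM (SD, n = 3) in CCL21+RANK- TECs, 109 ± 38.4 RPKM (n = 3) in CCL21-RANK+ TECs, and 7.88 ± 1.41 RPKM (n = 2) in CCL21-RANK- TECs. Tnfrsf11a averaged 9.50 ± 0.75, 104 ± 9.37, and 2.44 ± 0.258 RPKM in the same order. Each reporter gene was highest in the population named for it, although Ccl21a was not absent from the CCL21-RANK+ libraries. Aire, the nuclear regulator of promiscuous expression, averaged 113 ± 18.4 RPKM in CCL21-RANK+ TECs against 0.747 ± 0.1 and 0.465 ± 0.488 RPKM in CCL21+RANK- and CCL21-RANK- TECs. Foxn1, the master regulator of thymic epithelium, was at 50.7 RPKM or more in all 8 libraries, and Epcam at 49.5 RPKM or more.

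The 3 promoters below are shown because the first pair of genes moved in opposite directions and the last differed in every comparison. They belong to Cyp26a1 and Cyp26b1, which degrade retinoic acid, and Cyp51, the lanosterol demethylase of cholesterol synthesis. Each line gives the 120 bases that end at the gene start of the GENCODE annotation, 5′ to 3′ on the gene's strand, cut from RefSeq promoter sequence (GRCm38.p6), at chr19:37697678-37697797 on the plus strand, chr6:84593909-84594028 on the minus strand, and chr5:4104747-4104866 on the minus strand. Capitals mark, in Cyp26a1, a direct repeat of GNTCA with 6 bases between the copies, read on the opposite strand, which is the layout known as a DR5 retinoic acid response element. In Cyp51 they mark ATCACCNCA, the core of a sterol response element.
Cyp26a1: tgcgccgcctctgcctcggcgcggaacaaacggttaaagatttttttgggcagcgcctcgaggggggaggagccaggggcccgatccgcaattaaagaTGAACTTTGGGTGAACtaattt
Cyp26b1: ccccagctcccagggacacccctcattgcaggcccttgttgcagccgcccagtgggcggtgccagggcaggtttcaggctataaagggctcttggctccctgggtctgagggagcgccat
Cyp51: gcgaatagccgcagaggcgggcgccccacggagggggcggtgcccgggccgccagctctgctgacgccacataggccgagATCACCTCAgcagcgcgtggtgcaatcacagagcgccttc
The marked repeat lies 22 to 7 bases before the GENCODE start of Cyp26a1. Searched on both strands of windows from 250 bases before to 50 after the RefSeq start, which lies farther downstream in these 3 genes, the repeat was in 0.861% of all 32851 promoter windows and in the windows of 3 of the 135 members that had one, Cyp26a1, Cyp2c50, and Sult2a8. The window of Cyp26b1 held no match. The sterol motif was in 0.782% of all windows and in those of Cyp51, Cyp2a4, and Cyp2a5. A match in letters is a description and not a shown binding site.

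Across the 166 members, 34 had at most 3 counts in every library, including 28 with 0 counts throughout. Another 43 exceeded 3 counts somewhere but failed edgeR's expression filter, and in all 43 the library with the highest RPKM was a CCL21-RANK+ library. The filter kept 89 members, with 51 Cyp, 22 Gst, 8 Ugt, and 8 Sult genes. Of these 29 had at most 3 counts in each CCL21+RANK- and CCL21-RANK- library, so they passed through the CCL21-RANK+ libraries alone and had to differ. In a population, 97 members were at 0 in all CCL21+RANK- libraries, 93 in both CCL21-RANK- libraries, and 28 in all CCL21-RANK+ libraries. Mean levels over 1 RPKM were found for 23 members in CCL21+RANK- TECs, 39 in CCL21-RANK+ TECs, and 23 in CCL21-RANK- TECs. These are bulk libraries, in which more cells that use a gene and more RNA per cell cannot be told apart.

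The families differed in summed level and in the genes that carried it. The Cyp sum was 74.0, 80.8, and 86.1 RPKM in CCL21+RANK- libraries, 171, 95.8, and 107 RPKM in CCL21-RANK+ libraries, and 72.7 and 73.4 RPKM in CCL21-RANK- libraries. Cyp26b1 made up 49.8% of that sum in CCL21+RANK- TECs, whereas Cyp51 led in CCL21-RANK+ TECs with 30.4%. The Gst sum was 151, 141, and 152 RPKM, then 176, 120, and 131 RPKM, then 190 and 223 RPKM, so libraries of CCL21+RANK- and of CCL21-RANK+ TECs overlapped. Gsta4 led it in CCL21+RANK- and CCL21-RANK- TECs with 34.1% and 45.9%, and Gstp1 led in CCL21-RANK+ TECs with 30.2%. The Sult sum was 2.26, 2.37, and 2.30 RPKM in CCL21+RANK-, 17.6, 8.13, and 10.2 RPKM in CCL21-RANK+, and 0.995 and 0.882 RPKM in CCL21-RANK- libraries. The Ugt sum stayed under 0.4 RPKM outside the CCL21-RANK+ libraries, where it was 5.00, 2.03, and 1.86 RPKM. CCL21-RANK+ replicate 1 was the highest library for the Cyp, Ugt, and Sult sums.

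**Figure D1:**
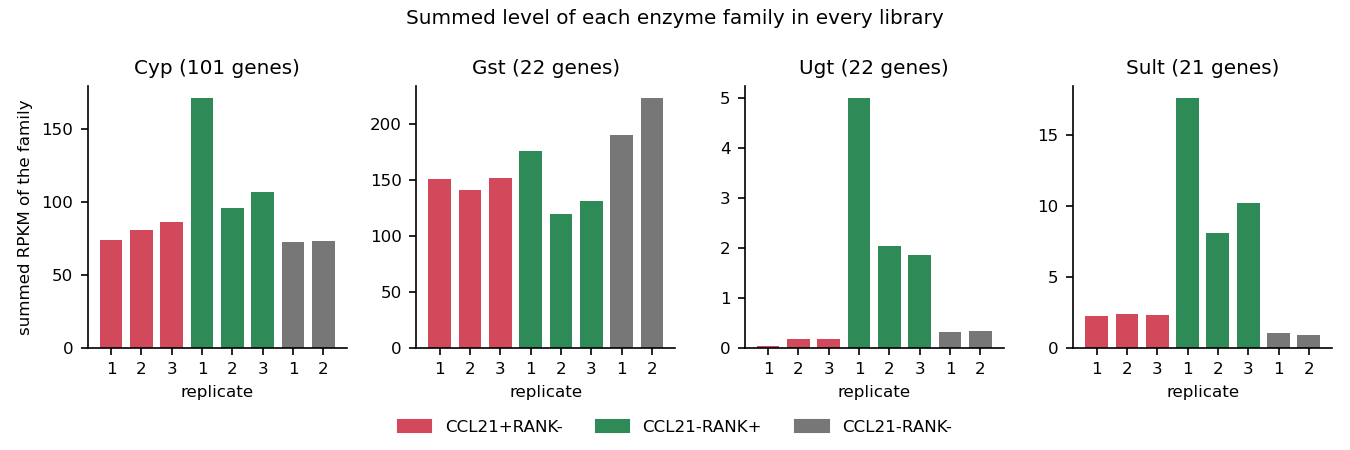
Bars give the summed RPKM of all members of a family (panels, each with its own axis from 0) in each of the 8 libraries, coloured by population. The Cyp, Ugt, and Sult bars are higher in all 3 CCL21-RANK+ libraries than elsewhere, with replicate 1 at 171, 5.00, and 17.6 RPKM, whereas the Gst bars of CCL21+RANK- and CCL21-RANK+ libraries overlap.

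The comparison of CCL21+RANK- with CCL21-RANK+ TECs asked how the chemokine-producing and the RANK-expressing cells differ. A gene was called at an adjusted p-value under 0.05 (edgeR's quasi-likelihood test, Benjamini-Hochberg over 21451 genes), more than a 1.5-fold difference, and more than 1 RPKM on average where it was higher. Of the 89 members tested, 9 were higher in CCL21+RANK- TECs (10.1%, against 15.4% of all genes tested), and 19 were higher in CCL21-RANK+ TECs (21.3%, against 15.4% of all genes tested). Without the RPKM minimum the first count was again 9, against 17.8% of all genes, and the second became 56, against 27.5% of all genes. The median log2 fold change of the members, CCL21+RANK- over CCL21-RANK+, was -4.16, and -2.43 with genes at 0 counts in a population set to the smallest change that 3 counts per library allow. The median of all genes tested was -0.11. The share of 15.4% in each direction is also the background for each count of members or other genes called in this comparison that follows, and 17.8% and 27.5% are the backgrounds without the RPKM minimum. Since 29 members passed the filter only through CCL21-RANK+ libraries, these shares describe the families and are no test of them.

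In all 19 members higher in CCL21-RANK+ TECs, replicate 1 had the highest RPKM of those 3 libraries, and in 7 it exceeded the other two by more than 2 times. Without that library 17 members were called, 16 of them among the 19. Cyp2g1, Sult1a1, and Sult2b1 then fell under the RPKM minimum. The 9 members higher in CCL21+RANK- TECs were called again without any one library.

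**Figure D2:**
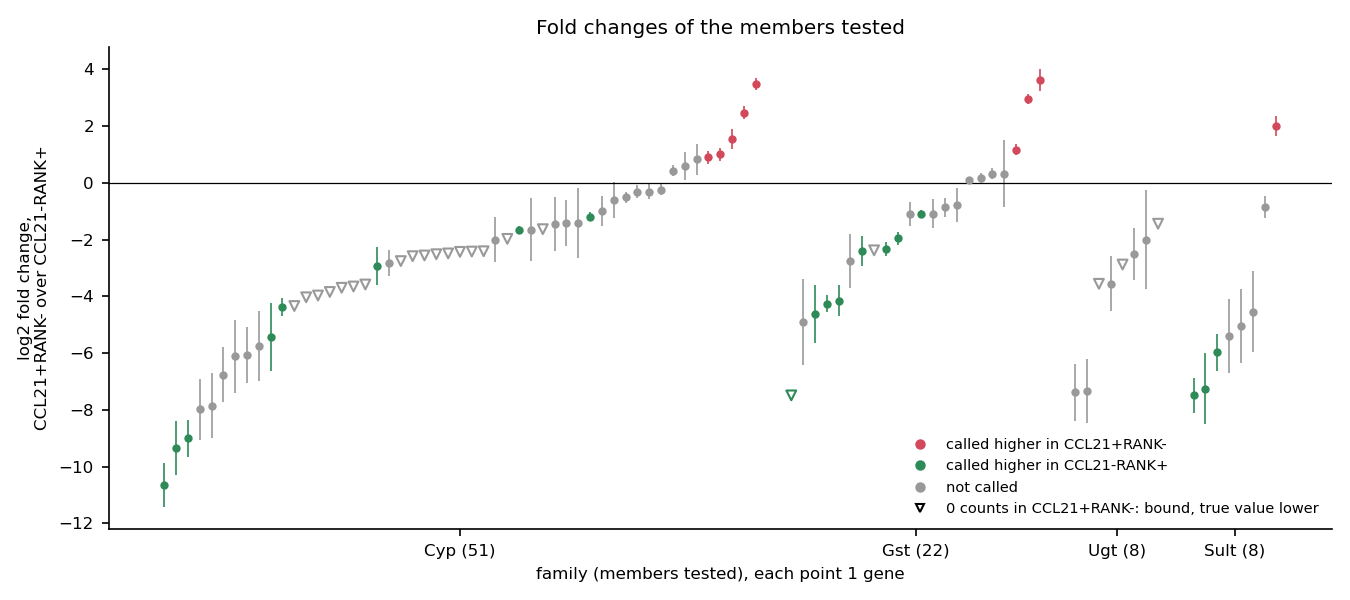
Each point is 1 of the 89 members tested, with its log2 fold change, CCL21+RANK- over CCL21-RANK+ (y axis, bars of 1 SE), ordered by value within each family (x axis). Open triangles are genes with 0 counts in all CCL21+RANK- libraries, drawn at the smallest change that 3 counts per library allow, and the 9 red points, called higher in CCL21+RANK- TECs, are 5 Cyp, 3 Gst, and 1 Sult gene.

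The enzymes that degrade retinoic acid moved in opposite directions. Cyp26b1 was at 33.8, 41.1, and 45.1 RPKM in CCL21+RANK- libraries, 4.47, 4.34, and 2.84 RPKM in CCL21-RANK+ libraries, and 32.7 and 27.8 RPKM in CCL21-RANK- libraries. Cyp26a1 was at 0.0254, 0.011, and 0 RPKM, then 37.0, 14.8, and 20.4 RPKM, then 0.321 and 0.0563 RPKM. The enzyme that was abundant in the RANK-negative cells was thus low where the other was abundant, and no library overlapped. Cyp26b1 was 11.2-fold higher in CCL21+RANK- TECs relative to CCL21-RANK+ TECs (log2 fold change 3.48, SE 0.20, adjusted p = 1.27e-06 from edgeR). Cyp26a1 was higher in CCL21-RANK+ TECs (log2 fold change -10.65, SE 0.78, adjusted p = 4.11e-06 from edgeR), a size that rests on 4 counts in the 3 CCL21+RANK- libraries. The third enzyme, Cyp26c1, neighbours Cyp26a1 on chromosome 19 and stayed under 1 RPKM. It had 1 count in the 3 CCL21+RANK- libraries, against 0.709, 0.285, and 0.696 RPKM in CCL21-RANK+ and 0.331 and 0.448 RPKM in CCL21-RANK- libraries. The promoter with the DR5 repeat shown above is that of Cyp26a1.

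The other 11 retinoid genes of a list of uptake, storage, synthesis, and receptor genes also split. For CCL21+RANK- against CCL21-RANK+ TECs, 4 were called higher in the former and 4 in the latter. Stra6, the receptor that takes up retinol from its plasma carrier, was at 0.287, 0.507, and 0.417 RPKM in CCL21+RANK- and 32.7, 30.5, and 33.9 RPKM in CCL21-RANK+ libraries, a log2 fold change of -6.21 (SE 0.24, adjusted p = 2.06e-07 from edgeR). Crabp1, a binding protein that carries retinoic acid in the cytosol, averaged 22.4 ± 15.6 RPKM in CCL21-RANK+ libraries, highest in replicate 1 at 39.9 RPKM, and was at 0.487 RPKM or less in each library of the others. Aldh1a2 and Rdh10, which make retinoic acid and its precursor, were the other two called higher there, with log2 fold changes of -5.17 and -0.81.

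On the other side stood Crabp2, which delivers retinoic acid to nuclear receptors, at 25.6, 29.2, and 36.7 RPKM in CCL21+RANK- and 7.90, 5.42, and 5.22 RPKM in CCL21-RANK+ libraries. Dhrs3, which returns retinaldehyde to retinol, had a 4.85-fold higher level in CCL21+RANK- TECs (edgeR, adjusted p = 3.87e-06). The receptor Rarg was 5.96-fold and the synthetic enzyme Aldh1a3 was 4.21-fold higher in the same direction. Rara, Rarb, and Aldh1a1 were not called. For CCL21+RANK- against CCL21-RANK- TECs, Aldh1a3 was called higher in the former (adjusted p = 0.0306 from edgeR, beside 4.35% of all genes called) and Crabp2 and Aldh1a1 in the latter (adjusted p = 0.00101 and 0.0371, beside 3.66%). These are among 9 pathway genes outside the families called between these populations, and that count was 3 and 2 without CCL21-RANK- replicate 1 and replicate 2. Crabp2 reached 70.8 and 95.3 RPKM in CCL21-RANK- libraries.

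**Figure D3:**
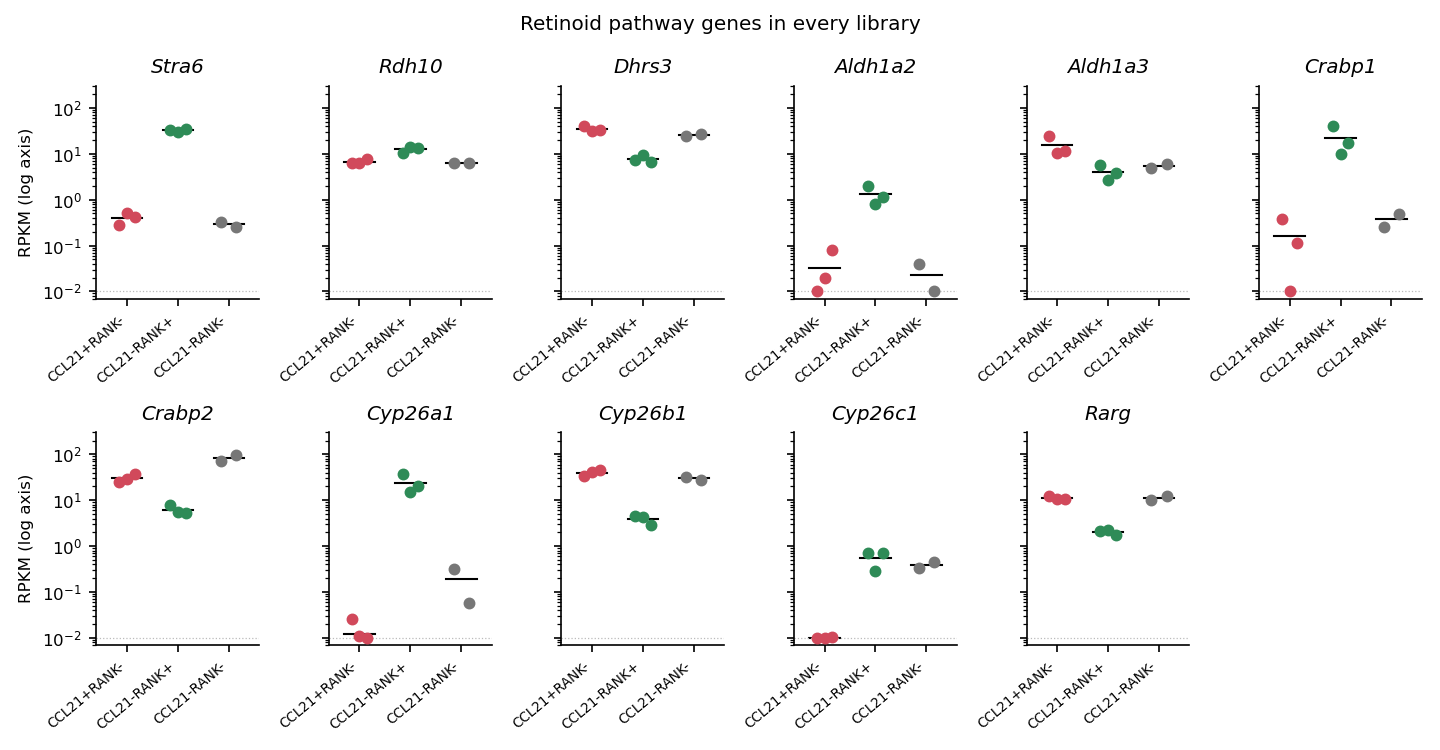
Points are the RPKM (log axis) of 11 retinoid genes in each library, with the mean as a bar, and values under 0.01 are drawn on the dotted line at 0.01. Stra6, Crabp1, Aldh1a2, and Cyp26a1 are high in CCL21-RANK+ TECs, whereas Dhrs3, Crabp2, Cyp26b1, and Rarg are low there.

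Of the 4 vitamin D genes, 1 was called. Cyp27a1, a sterol hydroxylase that also acts on vitamin D and bile acid precursors, was at 0.193, 0.15, and 0.167 RPKM in CCL21+RANK-, 4.88, 3.41, and 3.37 RPKM in CCL21-RANK+, and 0.164 and 0.212 RPKM in CCL21-RANK- libraries. It was 20.8-fold higher in CCL21-RANK+ TECs relative to CCL21+RANK- TECs (edgeR, adjusted p = 3.67e-06). Cyp24a1, which inactivates vitamin D, stayed under the RPKM minimum at 0.927, 0.364, and 0.532 RPKM in CCL21-RANK+ libraries, against 1 count in all CCL21+RANK- libraries. Cyp27b1 and Cyp2r1, which activate it, were at 0.431 RPKM or less in every library and did not pass the test (adjusted p = 0.244 and 0.0619).

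Sterol and steroid genes numbered 12, of which 9 were tested and 2 called, both higher in CCL21-RANK+ TECs. Without the RPKM minimum 5 were higher there. Of these, Cyp11a1, Cyp11b1, Cyp11b2, and Cyp19a1 had at most 3 counts in each library outside CCL21-RANK+ TECs. They thus passed the expression filter through that population and had to differ. Cyp51 was at 12.6, 9.56, and 10.4 RPKM in CCL21+RANK-, 45.8, 32.5, and 35.3 RPKM in CCL21-RANK+, and 5.87 and 6.09 RPKM in CCL21-RANK- libraries. All 3 populations stood apart, and Cyp51 was called in each comparison. It was 3.19-fold higher in CCL21-RANK+ TECs relative to CCL21+RANK- TECs (log2 fold change -1.67, SE 0.13, adjusted p = 6.5e-06 from edgeR) and 1.82-fold higher in CCL21+RANK- TECs relative to CCL21-RANK- TECs (adjusted p = 0.00596). The latter call was lost without CCL21-RANK- replicate 2, at a log2 fold change of 0.81. The sterol motif shown above lies 40 to 32 bases before its GENCODE start.

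Cyp11a1, the side-chain cleavage enzyme that opens steroid hormone synthesis, was at 2.74, 1.15, and 1.24 RPKM in CCL21-RANK+ libraries. Only 2 counts were found over all CCL21+RANK- libraries and 2 over both CCL21-RANK- libraries. The ratio of CCL21-RANK+ to CCL21+RANK- TECs was 635, with a 95% exact interval of 175 to 5249 that covers counting error only. The adrenal enzymes Cyp11b1 and Cyp11b2 were at 0 counts in all CCL21+RANK- libraries. They were at least 20.3-fold and at least 12.0-fold higher in CCL21-RANK+ TECs, counting 3 counts per library as the floor, but stayed near or under 1 RPKM. The aromatase Cyp19a1 had 2 counts in CCL21+RANK- libraries and 0.293, 0.146, and 0.284 RPKM in CCL21-RANK+ libraries. Cyp17a1, at 0.405 to 1.64 RPKM over all libraries, Cyp39a1 at 2.16 to 3.85 RPKM, and Cyp46a1 at 0.0198 to 0.255 RPKM did not pass the test in that comparison, nor did Cyp7b1 (adjusted p = 0.35, 0.332, 0.229, and 0.0924 from edgeR). These are enzymes of androgen, oxysterol, and brain cholesterol metabolism.

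Markers of steroid-producing cells moved with these genes. The 4 markers Star, Nr5a1, Hsd3b1, and Hsd3b6 summed to 0.0297, 0.0329, and 0.0539 RPKM in CCL21+RANK-, 5.19, 1.73, and 2.91 RPKM in CCL21-RANK+, and 0.0559 and 0.0475 RPKM in CCL21-RANK- libraries. Hsd3b6 was the most abundant, 2 of the 4 were called higher in CCL21-RANK+ TECs relative to CCL21+RANK- TECs, and Nr5a1 was at 0 counts in every CCL21+RANK- and CCL21-RANK- library. Their part in the steroid gene values was not tested.

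Among the Cyp genes classed as xenobiotic, 17 of 51 were tested, with 1 called higher in CCL21+RANK- TECs (5.88%) against 3 higher in CCL21-RANK+ TECs (17.6%), beside 15.4% of all genes each way. Without the RPKM minimum these were 1 and 13, and 8 of the 13 had at most 3 counts in each library outside CCL21-RANK+ TECs. Cyp1b1, a target of the aryl hydrocarbon receptor that acts on hydrocarbons and estrogens, was at 4.31, 4.14, and 3.96 RPKM in CCL21+RANK-, 0.652, 1.03, and 0.733 RPKM in CCL21-RANK+, and 3.64 and 2.75 RPKM in CCL21-RANK- libraries. It was 5.56-fold higher in CCL21+RANK- TECs relative to CCL21-RANK+ TECs (edgeR, adjusted p = 1.97e-05). Cyp1a2, its liver relative on chromosome 9, was at 9.48, 2.38, and 3.57 RPKM in CCL21-RANK+ libraries against 2 counts in all CCL21+RANK- libraries, a ratio of 809 with a 95% exact interval of 224 to 6687. Their relative Cyp1a1 was at 1.16, 0.279, and 0.252 RPKM in CCL21-RANK+ libraries, and so under the RPKM minimum on average. It had 4 counts in CCL21+RANK- replicate 1 and 0 in the others of that population (log2 fold change -5.76, adjusted p = 0.00411 from edgeR). Cyp1b1 thus stood on the opposite side from Cyp1a1 and Cyp1a2. The receptor gene Ahr itself was at 1.34, 1.83, and 1.64 RPKM in CCL21-RANK+ and 0.464 RPKM or less in the other libraries. The olfactory enzyme Cyp2g1 was called with 2.51, 0.753, and 0.938 RPKM in CCL21-RANK+ libraries. Cyp2a5, which oxidises coumarin and nicotine, was called with 10.4, 1.57, and 1.84 RPKM in CCL21-RANK+ libraries, the widest spread among these genes, with replicate 1 far above the others. It has a near-identical copy, Cyp2a4, and part of the counts of both were not whole numbers, so its level is uncertain.

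Fatty acid enzymes, the Cyp4 and Cyp2j groups with Cyp2u1, had 17 of 29 tested, with 3 called in favour of CCL21+RANK- TECs (17.6%) against 1 in favour of CCL21-RANK+ TECs (5.88%), beside 15.4% of all genes each way. Without the RPKM minimum the counts were 3 and 10, but 8 of the 10 had at most 3 counts in each library outside CCL21-RANK+ TECs, so they passed the expression filter through that population and had to differ. Cyp2j6 and Cyp2j9, which oxidise arachidonic acid, were 1.86-fold and 2.94-fold and Cyp4f17 was 1.99-fold higher in CCL21+RANK- TECs (adjusted p = 0.00853, 0.00442, and 0.00482 from edgeR). Levels were low, with Cyp2j9 at 0.994, 1.01, and 1.17 RPKM in those libraries. The call of Cyp2j6 was lost when the 1.5-fold difference was tested formally. Cyp4f16 was at 3.22, 3.39, and 2.89 RPKM in CCL21+RANK- and 9.83, 7.04, and 7.10 RPKM in CCL21-RANK+ libraries, 2.30-fold higher in the latter. Cyp4f17 and Cyp4f16 are neighbours on chromosome 17, and part of the counts of both were not whole numbers.

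Glutathione transferases were the only family of the 4 in which each member passed the filter. Of 22, 3 were called higher in CCL21+RANK- TECs against 8 higher in CCL21-RANK+ TECs, or 3 and 11 without the RPKM minimum. Of the 11, Gsta1 and Gstt4 had at most 3 counts in each library outside CCL21-RANK+ TECs and had to differ. Members of the same class went both ways. Gsta4, which couples glutathione to aldehydes from oxidised lipids, was at 52.1, 47.0, and 52.3 RPKM in CCL21+RANK-, 8.33, 2.99, and 2.20 RPKM in CCL21-RANK+, and 84.4 and 105 RPKM in CCL21-RANK- libraries. Gsta2 was at 0.755, 0.517, and 0.802 RPKM, then 20.1, 10.2, and 13.2 RPKM, then 0.227 and 0.202 RPKM. No library of CCL21-RANK+ TECs overlapped those of the other populations for either gene. Gsta4 was 12.3-fold higher in CCL21+RANK- TECs relative to CCL21-RANK+ TECs (log2 fold change 3.62, SE 0.39, adjusted p = 4.2e-05 from edgeR) and Gsta2 was 19.1-fold lower (log2 fold change -4.26, SE 0.29, adjusted p = 2.88e-06).

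The 7 mu-class genes form a cluster on chromosome 3, where 2 were called higher in CCL21+RANK- TECs against 3 higher in CCL21-RANK+ TECs. Gstm2 was at 22.9, 23.7, and 21.6 RPKM in CCL21+RANK-, 4.22, 2.49, and 2.90 RPKM in CCL21-RANK+, and 15.4 and 18.1 RPKM in CCL21-RANK- libraries. Its neighbour Gstm1 was at 5.20, 6.29, and 6.45 RPKM, then 35.8, 17.8, and 23.2 RPKM, then 6.54 and 6.60 RPKM. The neighbours thus changed in opposite directions, 7.78-fold and 3.90-fold (adjusted p = 1.5e-06 and 5.16e-05 from edgeR). Gstm3, on the other side of Gstm2, had 0 counts in every CCL21+RANK- library against 10.3, 5.89, and 9.55 RPKM in CCL21-RANK+ libraries, at least 180-fold higher with 3 counts per library as the floor. It had 5 and 0 counts in the CCL21-RANK- libraries. Gstm5 was 2.24-fold higher in CCL21+RANK- TECs and Gstm7 was 5.28-fold higher in CCL21-RANK+ TECs, while Gstm4 was at 4.77 to 7.42 RPKM everywhere and did not pass the test (adjusted p = 0.541).

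Summing the counts over a class hid these shifts. The mu-class sum had a log2 fold change of 0.01 for CCL21+RANK- against CCL21-RANK+ TECs, and the alpha-class sum one of 1.56, led by Gsta4. The counting program splits reads that match several genes. Counts of 29 members were not whole numbers in some library, Gsta1, Gsta2, Gstm1, Gstm3, Gstp1, and Gstp2 included, so the levels of these single genes are uncertain. Counts of Gsta4, Gstm2, Gstm4, Gstm5, Gstm7, and Gstp3 were whole in all libraries.

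Gstp1, the pi-class enzyme found in most epithelia, varied little. Its libraries lay between 38.2 and 49.8 RPKM, and its log2 fold change for CCL21+RANK- against CCL21-RANK+ TECs was 0.08 (SE 0.08, adjusted p = 0.452 from edgeR). Its relative Gstp3 was called higher in CCL21-RANK+ TECs, at 3.15, 0.966, and 1.34 RPKM. The theta-class genes Gstt1, Gstt2, and Gstt3, neighbours on chromosome 10, were all higher in CCL21-RANK+ TECs relative to CCL21+RANK- TECs, by 17.9-fold, 5.05-fold, and 2.14-fold (adjusted p = 0.000177, 4.13e-05, and 0.000263 from edgeR). Gstt3 was as high in CCL21-RANK- libraries, at 7.99 and 7.81 RPKM, as in CCL21-RANK+ libraries, at 7.37, 7.25, and 6.87 RPKM, and the difference did not pass the test (adjusted p = 0.229).

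**Figure D4:**
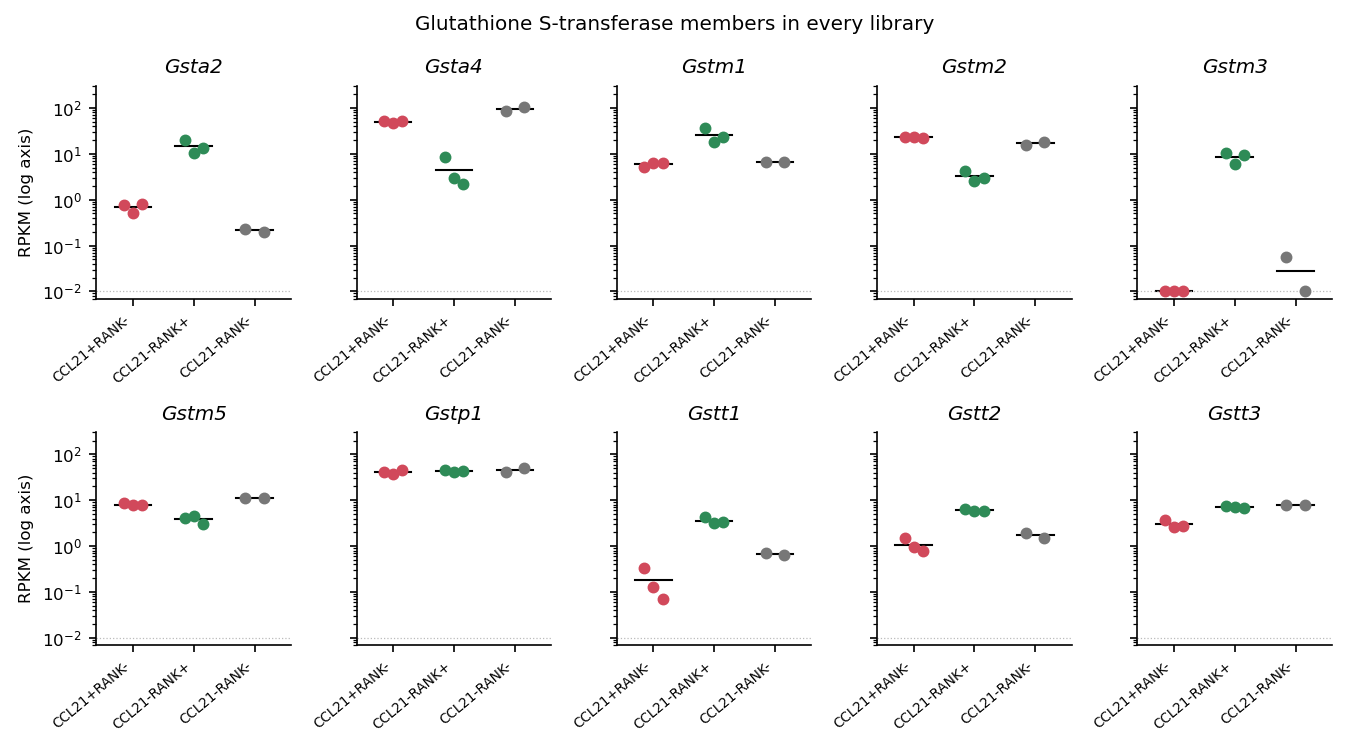
Points are the RPKM (log axis) of 10 Gst genes in each library by population, with the mean as a bar, and values under 0.01 drawn on the dotted line. Gsta4 and Gstm2 are low and Gsta2, Gstm1, and Gstm3 are high in CCL21-RANK+ TECs, and Gstp1 stays between 38.2 and 49.8 RPKM.

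The antioxidant response element, the site of the NRF2 factor in many Gst promoters, was sought as TGACNNNGC and the xenobiotic response element of the aryl hydrocarbon receptor as GCGTG, on both strands. The antioxidant motif was in 3 of 28 windows of 20 Gst genes, those of Gsta3, Gstm5, and Gstm7, and in 12.4% of all windows. The xenobiotic motif was in 32.4% of all windows and in those of Gsta1, Gsta2, Gstm1, Gstm5, Gstp1, and Gstp3 among Gst genes. Among windows of all members, the antioxidant motif was in 6.41% and the xenobiotic motif in 20.5%. The antioxidant motif was in 2 of 7 windows of members higher in CCL21+RANK- TECs, those of Gstm5 and Cyp2j6. It was in 1 of 22 windows of members higher in CCL21-RANK+ TECs, that of Gstm7. The xenobiotic motif was in 3 of the 7 and 8 of the 22 windows. The windows end 250 bases before the start, and nothing farther upstream was searched.

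Sulfotransferases gave 3 members called higher in CCL21-RANK+ TECs and 1 called the other way, of 8 tested among 21. Without the RPKM minimum these were 6 and 1. The 6 include Sult1d1 and Sult1e1, which had at most 3 counts in each library outside CCL21-RANK+ TECs and had to differ. Sult1c2 was at 9.34, 4.76, and 6.09 RPKM in CCL21-RANK+ libraries, at 0.0786 RPKM or less in CCL21+RANK- libraries, and at 0 counts in both CCL21-RANK- libraries. It was at least 261-fold higher in CCL21-RANK+ TECs relative to CCL21-RANK- TECs. Sult1a1, the main phenol sulfotransferase, was at 3.38, 0.582, and 1.12 RPKM and Sult2b1, which acts on cholesterol in skin, at 1.54, 0.682, and 0.93 RPKM in CCL21-RANK+ libraries, so both rested on replicate 1 to reach the mean RPKM minimum. Sult5a1 went the other way, at 1.84, 1.68, and 1.40 RPKM in CCL21+RANK- and 0.462, 0.623, and 0.254 RPKM in CCL21-RANK+ libraries, 3.98-fold higher in the former (adjusted p = 0.00114 from edgeR). Papss2, which makes the sulfate donor PAPS, was at 15.2, 10.8, and 11.2 RPKM in CCL21-RANK+ and 0.981 RPKM or less in the other libraries (log2 fold change -3.66, SE 0.20, adjusted p = 9.79e-07).

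Glucuronosyltransferases stayed low throughout. No Ugt gene averaged over 1 RPKM in any population, so 0 of 22 could be called by edgeR or by DESeq2 in any comparison. For CCL21+RANK- against CCL21-RANK+ TECs, 7 of the 8 tested had an unadjusted p-value under 0.05 in edgeR, beside 59.1% of all genes, and 7 passed the adjusted p-value and the fold change, all higher in CCL21-RANK+ TECs, beside 27.5% of all genes. Of the 8, 3 had at most 3 counts in each library outside CCL21-RANK+ TECs and passed the expression filter through that population. The unadjusted count was 5 for CCL21-RANK+ against CCL21-RANK- TECs, beside 55.4% of all genes, and 2 for CCL21+RANK- against CCL21-RANK- TECs, beside 25.1%. The highest single values were Ugt2b34 at 1.18 and Ugt1a1 at 1.15 RPKM, both in CCL21-RANK+ replicate 1. The Ugt1a genes share their last exons, and 8 of the 9 had counts that were not whole numbers, so their single values are uncertain. Ugdh, which makes the glucuronic acid donor, was in contrast 2.56-fold higher in CCL21+RANK- TECs, at 15.6, 15.8, and 18.1 RPKM (adjusted p = 7.94e-06 from edgeR).

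Summed liver and gut markers also stood highest in CCL21-RANK+ libraries, with single exceptions. The 9 hepatocyte markers summed to 0.533, 1.23, and 1.74 RPKM in CCL21+RANK-, 37.2, 9.65, and 16.4 RPKM in CCL21-RANK+, and 0.307 and 0.494 RPKM in CCL21-RANK- libraries. Apoa1 was the most abundant at 23.0, 6.81, and 10.3 RPKM in CCL21-RANK+ libraries, 4 of the 9 were called higher there, and Alb was at 1.68, 0.579, and 0.579 RPKM. Afp, the fetal hepatocyte marker of the list, averaged 0.383 RPKM in CCL21+RANK- and 0.296 RPKM in CCL21-RANK+ libraries and did not pass the test (adjusted p = 0.566 from edgeR). The 7 enterocyte markers summed to 233, 152, and 172 RPKM in CCL21-RANK+ and 1.18 RPKM or less in the other libraries, mostly from Cdx1. In both sums and in the 19 called enzymes, replicate 1 was the highest CCL21-RANK+ library. That was not particular to liver and gut markers. It also held for the summed markers of steroid-producing cells above and of CD45+, mesenchymal, endothelial, and tuft cells below, but not for erythroid or thymic epithelial markers. The part of liver and gut markers in the enzyme values was not tested.

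Markers of other cells were also measured. The 9 markers of CD45+ cells summed to 71.8, 23.3, and 33.4 RPKM in CCL21-RANK+ libraries and 10.4 RPKM or less elsewhere, led by Lyz2 at 52.3, 14.7, and 17.8 RPKM, while Ptprc, which encodes CD45, was at 0.576 RPKM or less in every library. The 6 mesenchymal markers summed to 48.9, 25.1, and 31.1 RPKM in CCL21-RANK+ libraries and 3.27 RPKM or less elsewhere. For the 5 endothelial markers the sums were 4.08, 2.20, and 1.90 RPKM in CCL21-RANK+ libraries and 0.45 RPKM or less elsewhere. The 8 tuft cell markers summed to 37.7, 15.9, and 13.4 RPKM in CCL21-RANK+ and 14.0, 12.6, and 12.9 RPKM in CCL21+RANK- libraries, with 4.91 and 6.33 RPKM in CCL21-RANK- libraries. The sums hold opposite calls, since Trpm5, Avil, Gnat3, and Alox5ap were called in favour of CCL21-RANK+ TECs, whereas Pou2f3 and Dclk1 were called in favour of CCL21+RANK- TECs. The 4 erythroid markers summed to 5.46 to 318 RPKM with overlapping populations. The 4 parathyroid markers summed to 7122, 1750, and 1955 RPKM in CCL21+RANK- libraries and 24.9 RPKM or less elsewhere, so these libraries carried parathyroid transcripts beside the 9 enzymes higher in them. The 7 thymic epithelial markers summed to 4688 to 5401 RPKM in CCL21+RANK-, 1596 to 1924 RPKM in CCL21-RANK+, and 4200 and 4461 RPKM in CCL21-RANK- libraries, mostly from Krt18 and Krt8. Of the 7, Epcam, 2.05-fold higher, and Aire were called in favour of CCL21-RANK+ TECs and the other 5 in favour of CCL21+RANK- TECs. The part of these cells in the enzyme values was not tested.

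**Figure D5:**
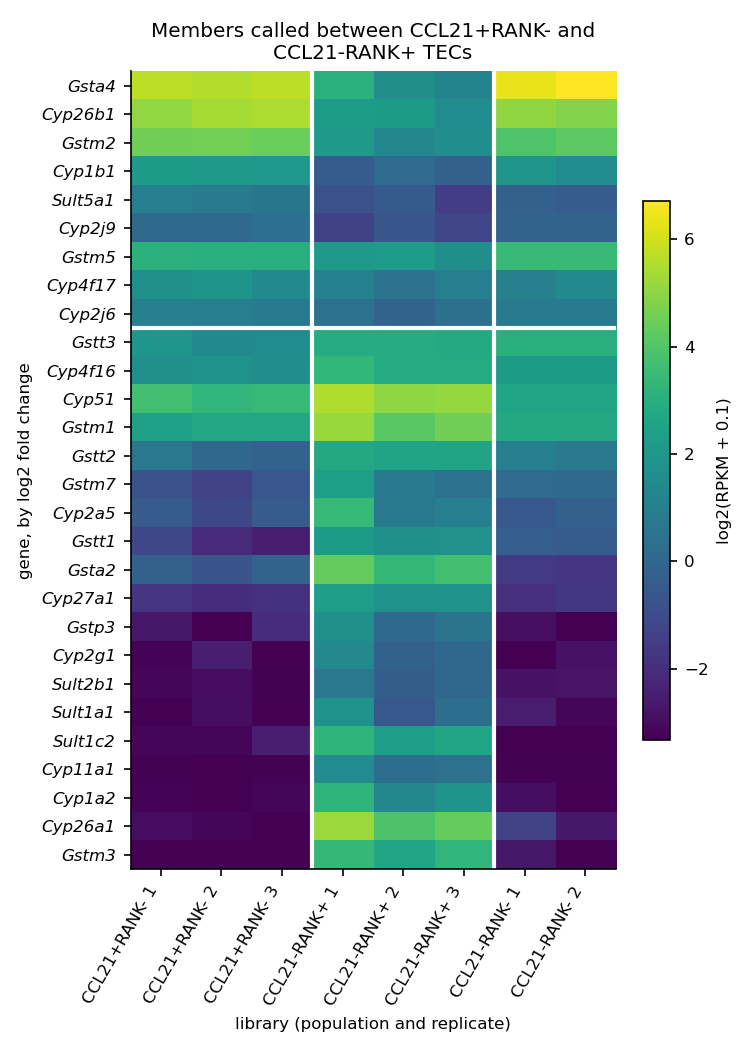
The colour gives log2(RPKM + 0.1) of the 28 members called for CCL21+RANK- against CCL21-RANK+ TECs (rows, ordered by log2 fold change) in each library (columns). In the Cyp26b1 row the CCL21-RANK- columns, at 32.7 and 27.8 RPKM, lie near the CCL21+RANK- columns, and in the Gstt3 row, at 7.99 and 7.81 RPKM, they lie near the CCL21-RANK+ columns.

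The CCL21-RANK- population held TECs with neither reporter. Its comparison with CCL21-RANK+ TECs shares the CCL21-RANK+ libraries with the comparison above and the CCL21-RANK- libraries with the one below. The one below also shares the CCL21+RANK- libraries with the comparison above. For CCL21-RANK+ against CCL21-RANK- TECs, 19 members were higher in CCL21-RANK+ TECs (against 14.4% of all genes tested) and 8 in CCL21-RANK- TECs (against 15.1% of all genes tested). Without the RPKM minimum these were 46, against 25.4%, and 10, against 16.9%. The 29 members that passed the filter only through CCL21-RANK+ libraries were tested here too, so these shares again describe the families and are no test of them. The members higher in CCL21-RANK- TECs included Gsta4 at 22.9-fold, Cyp26b1 at 8.51-fold, Gstm2 at 5.70-fold, Cyp1b1 at 4.31-fold, and Gstm5 at 3.05-fold. Gstz1, an isomerase of tyrosine breakdown, and Cyp7b1, an oxysterol hydroxylase, joined them at 1.77-fold and 1.69-fold (adjusted p = 0.00863 and 0.0151 from edgeR). Both calls were lost when the 1.5-fold difference was tested formally, that of Gstz1 also without CCL21-RANK- replicate 2, and that of Cyp7b1 also with at least 10 counts in every library and without CCL21-RANK+ replicate 3 or CCL21-RANK- replicate 1. Cyp2j6 was the last, at 1.65-fold and adjusted p = 0.0373, and its call was lost under several settings. Sult4a1, a brain sulfotransferase, and Cyp4f39 were called with levels 8.46-fold and 4.09-fold those in CCL21-RANK- TECs (adjusted p = 0.000853 and 0.0464 from edgeR). The call of Cyp4f39 was lost with the formal fold test and without CCL21+RANK- replicate 1, CCL21-RANK+ replicate 1, or either CCL21-RANK- library.

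For CCL21+RANK- against CCL21-RANK- TECs few members were called. Cyp51 was higher in CCL21+RANK- TECs (1 member, against 4.35% of all genes tested), and Gstt3 and Gsto1 were higher in CCL21-RANK- TECs (2 members, against 3.66% of all genes tested). Gstt3 was 2.57-fold higher in CCL21-RANK- TECs (edgeR, adjusted p = 0.00115). Gsto1, an omega-class enzyme that reduces arsenicals, was at 0.588, 0.913, and 1.49 RPKM in CCL21+RANK- and 2.66 and 4.11 RPKM in CCL21-RANK- libraries, 3.40-fold higher in the latter (adjusted p = 0.0154). Its call was lost without CCL21+RANK- replicate 2 or without either CCL21-RANK- library, where its adjusted p-value passed 0.05. Gsta2 differed 3.20-fold (adjusted p = 0.0143) but stayed under 1 RPKM in both populations.

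The regulators and cofactor enzymes around these families also differed in the comparison of CCL21+RANK- with CCL21-RANK+ TECs. Of 19 regulators, 6 were called higher in CCL21+RANK- TECs (31.6%) against 2 higher in CCL21-RANK+ TECs (10.5%), or 7 and 5 without the RPKM minimum. Nfe2l2, which encodes NRF2, was at 11.4, 11.6, and 11.2 RPKM in CCL21+RANK-, 6.47, 5.69, and 5.43 RPKM in CCL21-RANK+, and 12.4 and 13.0 RPKM in CCL21-RANK- libraries (2.12-fold, adjusted p = 2.36e-05 from edgeR). Its partner Mafg was 2.37-fold and its competitor Bach1 was 3.32-fold higher in CCL21+RANK- TECs relative to CCL21-RANK+ TECs. Rxra, the shared partner of many nuclear receptors, was at 26.4, 29.3, and 34.1 RPKM in CCL21+RANK- and 12.6, 15.8, and 12.1 RPKM in CCL21-RANK+ libraries, 2.39-fold higher in the former (adjusted p = 6.03e-05 from edgeR).

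Nqo1, the quinone reductase that is a standard NRF2 target, was at 115, 110, and 139 RPKM in CCL21+RANK-, 10.2, 16.6, and 8.49 RPKM in CCL21-RANK+, and 224 and 258 RPKM in CCL21-RANK- libraries. Its order of populations was that of Gsta4, with the CCL21-RANK- libraries highest. Of 12 NRF2 targets outside the families, 3 were called higher in CCL21+RANK- TECs, Nqo1, the glutathione synthesis subunit Gclm at 2.71-fold, and the biliverdin reductase Blvrb at 2.28-fold. The cystine transporter Slc7a11 was the 1 called higher in CCL21-RANK+ TECs, at 1.90-fold. Of 13 cofactor genes, 3 were higher in CCL21+RANK- TECs, Ugdh, Gss, and Slc35d1, and 1 was higher in CCL21-RANK+ TECs, Papss2. Por, which passes electrons to microsomal Cyp enzymes, was at 14.2 to 20.4 RPKM in all libraries and did not pass the test (adjusted p = 0.178 from edgeR).

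Other xenobiotic enzymes and transporters split as well. Of 24 enzymes, 21 were tested, with 6 higher in CCL21+RANK- TECs against 7 higher in CCL21-RANK+ TECs. Fmo1, a flavin monooxygenase, was at 10.5, 9.65, and 14.3 RPKM in CCL21+RANK-, 1.16, 1.32, and 0.698 RPKM in CCL21-RANK+, and 11.2 and 13.1 RPKM in CCL21-RANK- libraries (11.6-fold, adjusted p = 1.91e-06 from edgeR). The carbonyl reductase Cbr1 was 2.76-fold and Fmo5 was 2.45-fold above its level in CCL21-RANK+ TECs in the CCL21+RANK- libraries. Mgst3, a membrane glutathione transferase outside the Gst symbols, was at 36.3, 39.2, and 41.4 RPKM in CCL21-RANK+ and 13.0 RPKM or less in the other libraries. Of 8 efflux transporters, Abcc1 and Abcb1b were higher in CCL21-RANK+ TECs, by 2.56-fold and 8.55-fold, and Abcc4 was 2.42-fold higher in CCL21+RANK- TECs, and without the RPKM minimum the counts were 4 and 1. Abcc2, the bile canalicular pump, was listed at 0 counts in all CCL21+RANK- and CCL21-RANK- libraries and at 0.456, 0.227, and 0.11 RPKM in CCL21-RANK+ libraries.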

How the data were processed

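TECs of E17 embryos were sorted as CD45-EpCAM+ cells into 3 populations, and 8 libraries were sequenced. The authors deposited expected counts per gene, for which the submitters' processing notes name bcl2fastq 2.20, Trimmomatic, STAR 2.5.1, RSEM 1.3.1, and mm10. The methods of the study name CLC Genomics Workbench instead, and also a different library kit from that in the records. Between 4.47% and 5.94% of all values per library, zeros included, were not whole, since RSEM splits reads that match several genes. All values were rounded.

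Groups were taken from the sample records. Symbols were read from the gene identifiers, 203 matched the rule, and 37 with -ps were dropped. The members, gene lists, and tests were chosen with earlier results of these data known. Counts of all 55450 genes were fitted in edgeR 4.0.16 (R 4.3.3) with filterByExpr, TMM scaling, and the quasi-likelihood test, 1 mean per population, no block, and Benjamini-Hochberg adjustment over 21451 genes. SE is the absolute log2 fold change over the square root of F. RPKM was computed from the library total and the union exon length in GENCODE M21 (GRCm38). The noncoding genes Gm26917 and Gm42418 took 6.89% to 19.4% and 1.47% to 10.7% of the totals, which lowers RPKM of other genes. Where a population had 0 counts, a lower bound with 3 counts per library as the floor replaced the fold change, and with 1 to 3 counts a ratio with a 95% exact interval, which covers counting error only.

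Named members were, for each comparison and direction, the 8 called with the largest change and at least 1 CPM in the higher population, the 10 highest by level, and tested members of the retinoic acid, vitamin D, and sterol/steroid groups, and for each list of other pathway genes the 4 with the smallest adjusted p-value. Other genes named were chosen after their values were seen, and 2 listed genes are not reported here. The fit was tested on simulated counts. Alternatives in scaling, test (DESeq2 1.42.0), filter, libraries, block, and call rule were run.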

Additional observations from a re-analysis of the deposited data

How the results depend on the processing

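Against CCL21-RANK+ TECs, the 9 members higher in CCL21+RANK- TECs were 8 with the fold change of 1.5 tested formally and 9 without each library in turn. The 19 members higher in CCL21-RANK+ TECs relative to CCL21+RANK- TECs became 56 by the adjusted p-value alone and 56 without the RPKM minimum, 14 with at least 10 counts in every library, 9 of them among the 19, and 17 to 21 without 1 library. The 19 higher in CCL21-RANK+ TECs relative to CCL21-RANK- TECs became 46 and 46 under those call rules, 12 with at least 10 counts, 9 of them among the 19, and 14 to 22 without 1 library, with 14 and 15 without CCL21-RANK- replicate 2 and replicate 1. The 10 members lost from both counts under that minimum had fewer than 10 counts in some library and were not tested, Cyp26a1, Cyp11a1, Cyp1a2, Gstm3, and Sult1c2 among them. The 8 higher in CCL21-RANK- TECs relative to CCL21-RANK+ TECs became 5 with the formal fold test and 6 to 9 without 1 library, and Cyp2j6 lost its call with DESeq2 size factors, upper-quartile scaling, the DESeq2 test, and no filter, among others.

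The 1 member higher in CCL21+RANK- TECs relative to CCL21-RANK- TECs became 2 with the DESeq2 test, with no filter, with at least 10 counts, and with only the libraries compared, 3 by the adjusted p-value alone and 3 without the RPKM minimum, 0 with the formal fold test, and 0 to 2 without 1 library. It was 0 without CCL21-RANK- replicate 2. The 2 higher in CCL21-RANK- TECs relative to CCL21+RANK- TECs became 4 with no filter, 5 by the adjusted p-value alone and 5 without the RPKM minimum, 1 with the formal fold test, and 1 to 3 without 1 library, with 1 without CCL21+RANK- replicate 2 or either CCL21-RANK- library. The 9 other pathway genes called between these populations became 16 by the adjusted p-value alone, 14 without the RPKM minimum, 2 with the formal fold test, and 2 to 11 without 1 library, with 3 and 2 without CCL21-RANK- replicate 1 and replicate 2, alternatives chosen after seeing the data. Where no cause is given, the cause was not tested.

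Summing counts over all members of a Gst class turned the direction of Gsta2 (Gsta sum 1.56 for CCL21+RANK- over CCL21-RANK+ and -2.45 for CCL21-RANK+ over CCL21-RANK- on the log2 scale, SE 0.22 and 0.24). The sign also changed for Gstm1 and Gstm3 (Gstm sum 0.01, SE 0.16), Gstm2 and Gstm5 between CCL21-RANK+ and CCL21-RANK- (Gstm sum 0.05, SE 0.18), and Gstp3 (Gstp sum 0.02 and -0.15, SE 0.08 and 0.09), but these sums did not pass the test (adjusted p = 0.957, 0.839, 0.873, and 0.212 from edgeR). A sum can pool members that differ in opposite directions. No called change of a named member or other pathway gene reversed under the other alternatives run on single genes. Without 1 library, 721 such values kept their call and 23 lost it. DESeq2 size factors moved the median of all genes by 0.14 on the log2 scale for CCL21-RANK+ against CCL21-RANK- TECs, where all genes called higher and lower numbered 3088 and 3244 with TMM, 3415 and 2637 with DESeq2 size factors, and 3370 and 2737 with upper-quartile scaling.

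Libraries of CCL21+RANK- and CCL21-RANK+ TECs share replicate numbers. Deviations of libraries with the same number from their population means correlated at 0.126, 0.0485, and 0.0707. Between these 2 populations, each library correlated best with its own number. The values are small and cannot decide whether libraries with the same number share a sort or litter, which the study does not state. CCL21+RANK- replicate 2 correlated at 0.117 with CCL21-RANK- replicate 1. With the replicate block, the calls were 9 and 21 between CCL21+RANK- and CCL21-RANK+ and 2 and 3 between CCL21+RANK- and CCL21-RANK-. They were 19 and 8 for CCL21-RANK+ against CCL21-RANK- TECs, and only 7 of these 8 were called without the block, since Cyp2j6 was lost. With 2 or 3 libraries per population, members under 1 RPKM are known only to counting error and the spread shown.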
